A study of Mus musculus with 6 samples.

Results

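The enzymes that put acetyl groups on lysines of histones and other proteins, and those that take them off, were followed in C2C12 cells, a mouse myoblast line able to differentiate into fused myotubes. The members were 32 genes taken by name: 11 zinc-dependent histone deacetylases (HDACs), 7 sirtuins and 14 acetyltransferases or acetyltransferase coactivators. All 32 had a probe set annotated to their symbol alone, out of 18193 genes so represented, and all 32 were among the 10685 genes bright enough to be tested. Their 63 probe sets included 53 that were tested and 10 that were too dim. RNA came from 3 samples of untreated cells, kept for 72 h in basal medium (DMEM, fetal bovine serum, antibiotics and glutamine), and 3 samples of cells kept for 72 h in DMEM made without sodium pyruvate, with the same additions and 50 mM sodium pyruvate. Cells of both groups were seeded in 100 mm dishes, and 1 Affymetrix Mouse430_2 array was run per sample. Whether the basal DMEM contained some pyruvate is not stated, and no medium matched for the added sodium was analysed here, so pyruvate itself and the sodium that came with it cannot be told apart.

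Histone deacetylases of classes I, II and IV hold a zinc ion in the active site. Most class I enzymes sit in nuclear repressor complexes. Class IIa enzymes have little deacetylase activity of their own, shuttle between nucleus and cytoplasm, and hold back muscle genes by binding MEF2 factors. Sirtuins use NAD as a co-substrate, so their activity follows the NAD supply, and reduction of pyruvate to lactate turns NADH into NAD. Acetyltransferases draw on acetyl-CoA, which mitochondria make from pyruvate and which reaches the nucleus by way of citrate. In muscle precursors p300 and PCAF (Kat2b) act as coactivators of MyoD, and SIRT1 opposes PCAF on that factor.

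The members changed in both directions and by small amounts. Values are MAS5 signals, a linear brightness per probe set, and changes are differences of log2(signal + 16), pyruvate minus untreated, on the brightest probe set of a gene. A gene is said to rise or fall where limma's Benjamini-Hochberg adjusted p over all tested probe sets was under 0.05. By that rule 5 members rose (Hdac7, Sirt2, Sirt5, Kat2a and Hdac6) and 5 fell (Ncoa2, Sirt1, Kat2b, Hdac1 and Hdac2), while 22 did not pass. That is 31.2% of the members, where 35.1% of all genes tested passed (20.7% higher and 14.5% lower), so the count of changed members was near the background. The median change of the members was 0.01 and that of all genes 0.03. Signals of the groups did not overlap for 11 members, the 10 called and Kat6b, 5 of them with pyruvate higher and 6 with it lower. Of all genes 48.6% did not overlap, 28.6% with pyruvate higher and 20% with it lower. The changes ran from -0.61 for Ncoa2 to 0.54 for Hdac7. In simulated data with as many probe sets and arrays the test recovered 8% of changes of 0.25, 36% of changes of 0.5 and 96% of changes of 1. There 50 of 22519 probe sets carried each simulated size, a far smaller changed share than the 32.2% called in the data. Recovery under Benjamini-Hochberg adjustment depends on that share, so these rates need not hold for the data. A member that did not pass is not shown to be unchanged, and its 95% interval is given instead.

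By broad type, 4 of 11 zinc-dependent deacetylases passed (36.4%, 2 higher and 2 lower, median 0.06), 3 of 7 sirtuins (42.9%, 2 higher and 1 lower, median 0.14) and 3 of 14 acetyltransferases (21.4%, 1 higher and 2 lower, median -0.04). Each type thus held members of either direction. Differences between the types were not tested.

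**Figure D1:**
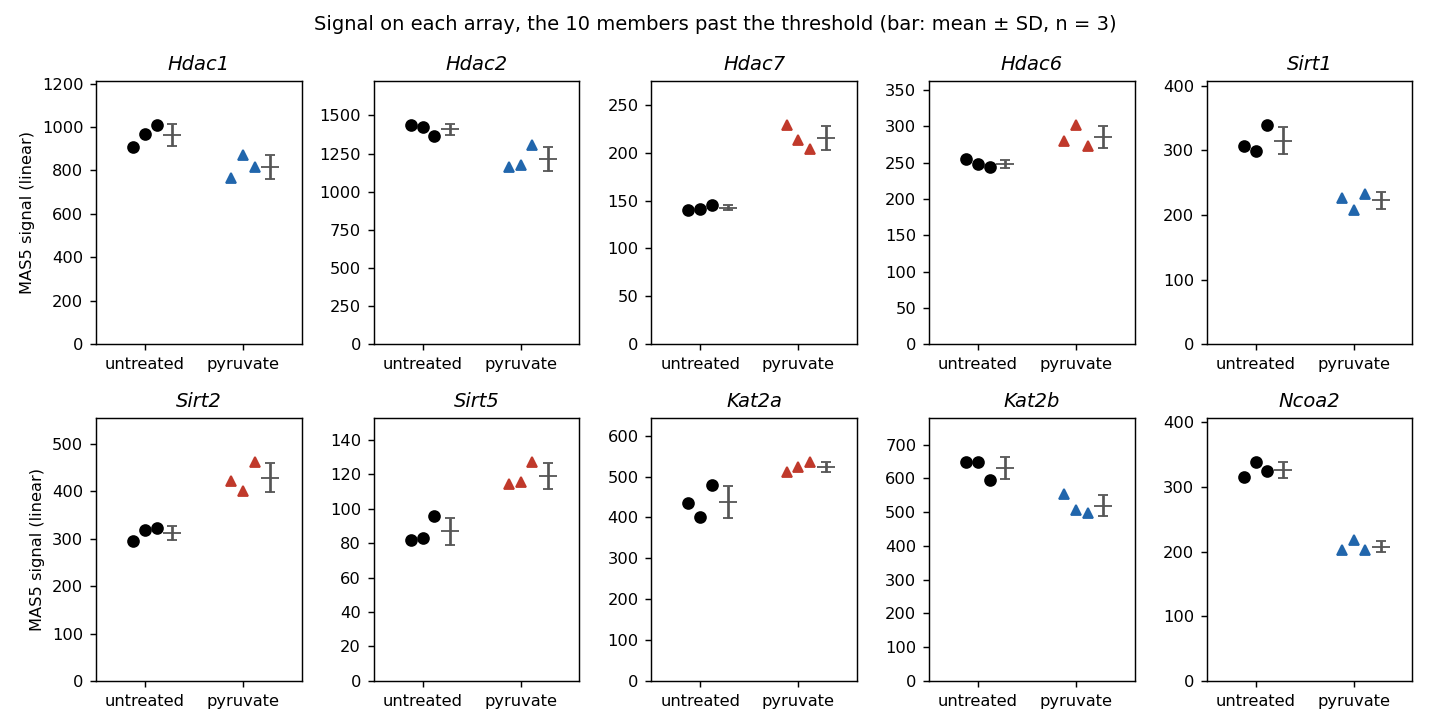
MAS5 signal (linear, each axis from 0) on each of the 3 untreated arrays (black circles) and 3 pyruvate arrays (triangles, red where higher and blue where lower) for the 10 members past the threshold, with mean ± SD beside the points. In every panel the triangles lie wholly above or wholly below the circles, with the widest separation for Ncoa2, Hdac7, Sirt1 and Sirt2.

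The RNA was that of muscle cells, and muscle differentiation markers differed between groups, although the labels call both undifferentiated. Of 8 myoblast markers 3 rose and 4 fell, with summed signals of 12606 to 12922 on untreated and 12712 to 13764 on pyruvate arrays. Myod1 was at 1268 ± 77.0 and 1525 ± 23.3 (SD, n = 3 arrays; untreated, then pyruvate), Myf5 at 830 ± 21.8 and 527 ± 87.6, and Des at 1835 ± 16.6 and 1735 ± 56.0. Of 11 markers of differentiated muscle 10 fell, among them the defining Myog, Acta1 and Tnnt3, and the 11th, Ckm, did not pass. Their summed signal was 7104 to 7572 on untreated and 930.5 to 1227 on pyruvate arrays. Beside every result given here, this drop moved with the treatment, and its part in them was not tested. Fewer differentiating cells and less of a transcript per cell cannot be told apart in such bulk RNA. Other lineages were dim. Of 5 adipocyte markers 2 were tested, with summed signals of 136.5 to 178.1 and 191.2 to 247.4, and the defining Adipoq and Fabp4 did not reach the filter. Of those tested, Cebpa rose from 36.6 ± 4.84 to 78.3 ± 6.84 (0.84, adjusted p = 0.00040) and Pparg did not pass. Of 5 macrophage markers 2 were tested (sums of 123.4 to 148.3 and 122.9 to 174.3), with Ptprc under the filter and neither Cd68 nor Csf1r called. Of 4 endothelial markers only Kdr was tested (sums of 65.8 to 87.5 and 45 to 56.1), and it fell by 0.43 (adjusted p = 0.043), while Pecam1 and Cdh5 were under the filter. The part of these Cebpa and Kdr changes in the results was not tested. No marker was listed at exactly 0. Of 6 tested cell cycle genes 2 rose and 1 fell.

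Among the sirtuins the nuclear Sirt1 fell, whereas the cytoplasmic Sirt2 and the mitochondrial Sirt5 rose. SIRT1, the nuclear enzyme that deacetylates histones, p53 and PGC-1alpha, had signals of 306.8, 299.1 and 339.2 on the untreated arrays and 226.6, 207.8 and 233.0 with pyruvate. All 3 pyruvate arrays were below every untreated one, a fall of 0.47 ± 0.07 (SE; adjusted p = 0.00053). SIRT2, a mainly cytoplasmic enzyme known for deacetylating tubulin, went the other way. Its transcript read 296.3, 318.3 and 323.4 in untreated and 422.8, 401.8 and 463.0 in pyruvate cells, a rise of 0.44 ± 0.07 (SE; adjusted p = 0.00053). Read within each array, the log2 ratio of Sirt2 to Sirt1 was 0.91 higher with pyruvate and did not overlap between groups. That pair, like the others compared this way below, was picked with the values in view and is given without a test.

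The other nuclear sirtuins did not pass. Sirt6, which acts at telomeres and on glycolytic genes, was at 78.0, 101.5 and 90.2 in untreated and 76.5, 68.3 and 90.8 in pyruvate cells (-0.16, 95% interval -0.44 to 0.11). Sirt7, the sirtuin of the nucleolus, was at 295.3, 262.2 and 255.8 against 274.2, 260.5 and 239.1 (-0.07, 95% interval -0.24 to 0.10). Arrays of the groups overlapped for both genes, so of the 3 nuclear sirtuins only Sirt1 fell, and the median of these genes was -0.16.

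In the mitochondrial group all 3 estimates were positive, with a median of 0.20, and 1 gene passed. Sirt5, whose product removes succinyl and malonyl groups from mitochondrial enzymes, had signals of 81.6, 83.2 and 95.8 untreated and 114.1, 115.5 and 127.4 with pyruvate. The groups did not overlap, and the rise was 0.39 ± 0.10 (SE; adjusted p = 0.011). Its other tested probe set leaned the same way without passing (0.22, adjusted p = 0.14), and the mean over its probe sets, a dim one included, did not pass either (0.21, adjusted p = 0.097). Sirt3, the main mitochondrial deacetylase, was at 77.6, 65.4 and 66.2 against 81.0, 76.6 and 90.6. Only 1 pyruvate array lay below the highest untreated one, but the change did not pass (0.20, 95% interval -0.04 to 0.45, adjusted p = 0.19). Sirt4 was dim, from 24.1 to 41.0 untreated and from 30.7 to 45.3 with pyruvate, and its interval of -0.23 to 0.51 left the direction unresolved.

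Sirt1 was called lower and Sirt2 higher, and each has 1 start in the RefSeq promoter table (GRCm38.p6). The 250 bases before it are shown. The pair was picked with the calls in view, and a link of promoter make-up to direction was not tested. Capitals mark matches, on either strand, to GGGCGG (the GC box of SP1 factors) and CACGTG (the E-box of MYC, USF and CLOCK).
Sirt1, chr10:63339036-63339285, minus strand: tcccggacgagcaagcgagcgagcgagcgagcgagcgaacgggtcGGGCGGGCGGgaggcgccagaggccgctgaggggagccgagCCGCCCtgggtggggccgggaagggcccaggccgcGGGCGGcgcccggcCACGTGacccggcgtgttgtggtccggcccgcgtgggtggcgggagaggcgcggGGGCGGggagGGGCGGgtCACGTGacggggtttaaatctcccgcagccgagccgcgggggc
Sirt2, chr7:28766502-28766751, plus strand: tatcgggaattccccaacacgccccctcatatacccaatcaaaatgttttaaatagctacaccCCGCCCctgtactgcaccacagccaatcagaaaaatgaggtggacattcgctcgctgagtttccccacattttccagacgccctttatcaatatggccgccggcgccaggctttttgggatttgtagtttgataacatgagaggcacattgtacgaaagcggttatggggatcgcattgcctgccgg

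The Sirt1 window held 6 GC boxes, the first 2 of them overlapping, and 2 CACGTG E-boxes, with 79.2% G and C. The Sirt2 window held 1 GC box and no such E-box, with 50.0% G and C. That of Sirt5, also called higher, held 1 GC box, with 62.8%. The window of Ncoa1, which was not called, held 7 GC boxes, with 85.6%. That of Hdac2, called lower, held 1, with 68.8%. GC boxes occurred in 32.7% of all 32851 windows of this length and CACGTG in 6.02%. Of the members, 26 were in the table, with 36 windows. Windows of 19 members held a GC box (58.3% of member windows), and CACGTG was found for 3, Sirt1, Hat1 and Kat5 (8.33% of member windows). The median G and C content was 61.0% over member windows and 52.4% over all. CAGCTG, the E-box preferred by MyoD and myogenin, was found for Hdac9, Hdac11, Kat2b and Kat8 (13.9% of member windows and 13.0% of all windows). The ETS core CCGGAAG was found for Hat1, Sirt3, Sirt6 and Sirt7 (11.1% of member windows and 6.91% of all), and the CRE TGACGTCA for none of the 26 (1.55% of all windows). Overlapping matches were counted, and a match is a run of letters, not a shown binding site. Hdac1, Hdac3, Hdac10, Kat6a, Ncoa2 and Ncoa3 were not matched in the table.

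Among class I deacetylases Hdac1 and Hdac2 were lower and Hdac3 and Hdac8 did not pass. HDAC1 and HDAC2 are close relatives that work together in the NuRD, SIN3 and CoREST repressor complexes. Hdac1 had signals of 908.4, 968.2 and 1009.8 untreated and 763.9, 870.3 and 814.1 with pyruvate. Each pyruvate array was below each untreated one, a fall of 0.23 ± 0.06 (SE; adjusted p = 0.012). Hdac2 went from 1438.2, 1422.9 and 1366.6 to 1159.7, 1178.1 and 1304.1, again without overlap, a fall of 0.21 ± 0.05 (SE; adjusted p = 0.012). A second Hdac2 probe set fell by 0.34 (adjusted p = 0.0012) and another, dim one was at -0.33 (adjusted p = 0.080). The array ratio of Hdac2 to Hdac1 overlapped between groups, with means 0.02 apart. These falls were near the threshold: without untreated array 3 the adjusted p of Hdac1 was 0.055, without untreated array 1 that of Hdac2 was 0.053, and without the variance trend in limma they were 0.058 and 0.059.

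Hdac3, the catalytic subunit of the NCoR and SMRT complexes, was at 482.8, 421.0 and 457.6 untreated and 455.9, 461.8 and 448.6 with pyruvate. The pyruvate arrays lay inside the untreated range, and the interval of the change was -0.13 to 0.14. Hdac8, a class I enzyme that acts on cohesin, was close to the filter, at 26.3 to 34.1 untreated and 31.5 to 40.2 with pyruvate (0.15, 95% interval -0.16 to 0.47). The class median was -0.10.

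Of the class IIa deacetylases, which bind MEF2, 1 of 4 rose. Hdac7 had signals of 140.7, 141.1 and 145.8 untreated and 229.1, 213.2 and 204.0 with pyruvate, well apart, a rise of 0.54 ± 0.08 (SE; adjusted p = 0.00027). Its other probe set rose as well (0.37, adjusted p = 0.034). The relatives overlapped between groups. Hdac4 was at 107.9, 79.2 and 95.3 untreated and 96.2, 94.5 and 104.4 with pyruvate (95% interval of the change -0.19 to 0.31), and its other probe sets were at 0.03 and -0.19 without passing. Hdac5 was at 253.8, 220.0 and 245.4 against 237.7, 225.7 and 230.4 (95% interval -0.21 to 0.11). Hdac9, known for a truncated form that lacks the catalytic domain, was at 93.8 to 111.6 and 92.1 to 126.1 (95% interval -0.15 to 0.37). Within arrays the log2 ratio of Hdac7 to Hdac5 was 0.59 higher with pyruvate and did not overlap between groups.

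Hdac6, the cytoplasmic class IIb enzyme that deacetylates tubulin, had signals of 254.7, 247.8 and 243.7 untreated and 280.3, 302.1 and 272.8 with pyruvate. The groups did not overlap, and the rise of 0.18 ± 0.07 (SE) only just passed (adjusted p = 0.0499). Leaving out any 1 of the 6 arrays ended that call, with adjusted p between 0.050 and 0.16, the only one of the 10 calls lost with every array. Hdac10, the other class IIb gene, whose product is a polyamine deacetylase, was at 92.1 to 112.4 and 102.1 to 133.2 (0.10, 95% interval -0.15 to 0.36). Hdac11, the class IV enzyme, was at 43.7 to 74.8 and 49.2 to 60.8 (-0.06, 95% interval -0.41 to 0.28). Its untreated arrays spread far more widely than the group means differed.

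**Figure D2:**
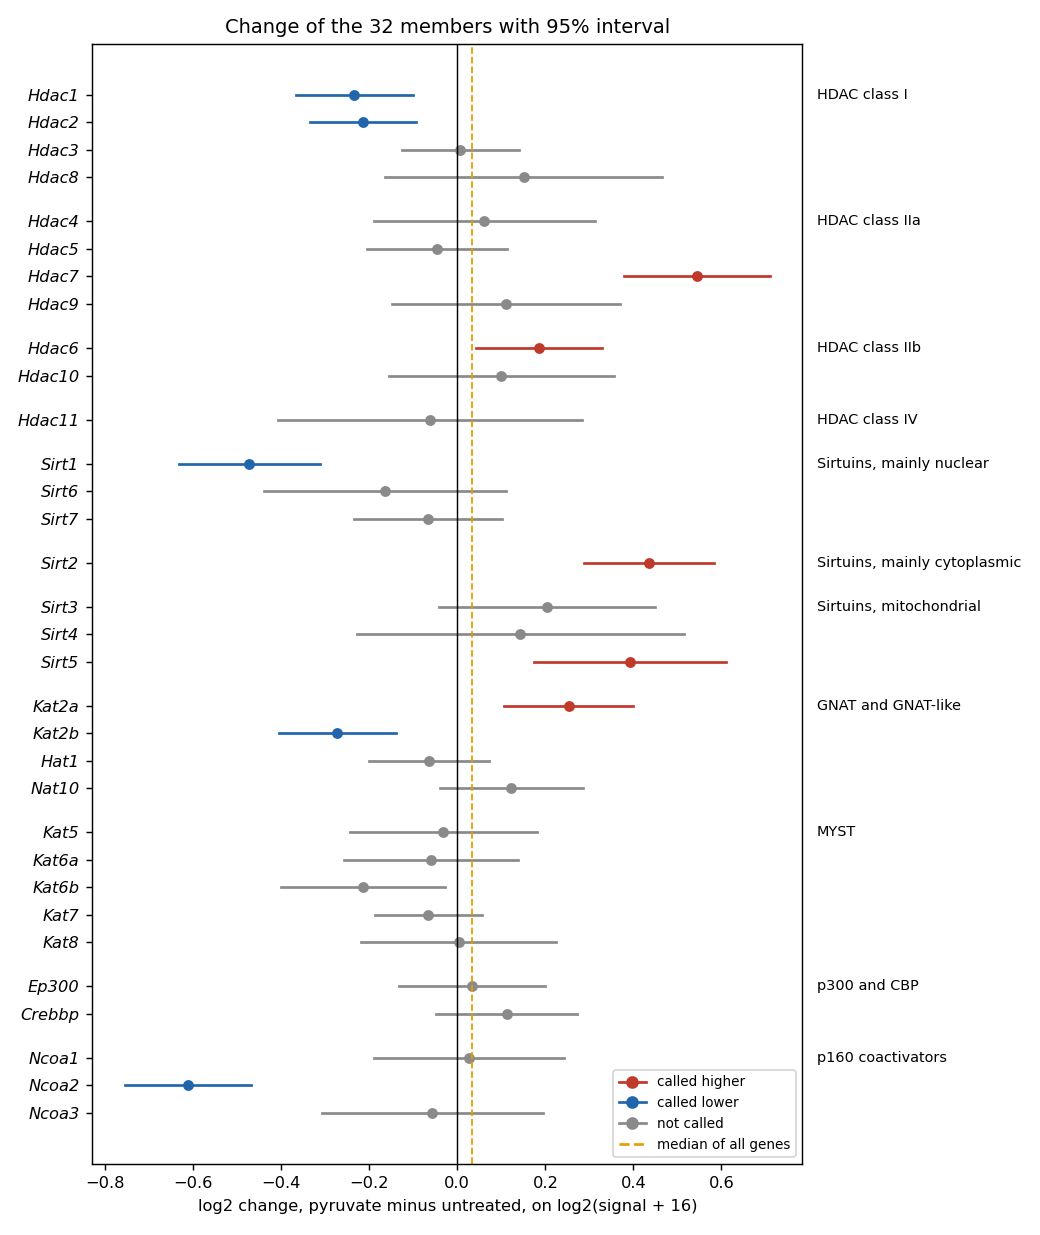
Log2 change (pyruvate minus untreated, on log2(signal + 16)) of all 32 members by class, with 95% intervals from limma and 3 arrays per group; red and blue mark members called higher and lower, grey those that did not pass, and the dashed line the median of all genes tested. Blue and red points lie side by side within the sirtuins and within the GNAT enzymes, where Kat2a is at 0.25 and Kat2b at -0.27.

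GCN5 (Kat2a) and PCAF (Kat2b), related GNAT enzymes that serve as alternative catalytic subunits of the same coactivator complexes, moved in opposite directions. Kat2a had signals of 435.5, 400.1 and 478.5 untreated and 512.0, 522.5 and 536.6 with pyruvate. Its pyruvate arrays were above all untreated ones, a rise of 0.25 ± 0.07 (SE; adjusted p = 0.013). A second probe set rose by 0.27 (adjusted p = 0.0055), while another, dimmer one was at -0.02. Without untreated array 2, the lowest, the Kat2a rise was 0.19 with an adjusted p of 0.058, and it was 0.051 without the variance trend.

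Kat2b read 649.9, 648.5 and 594.2 in untreated and 554.0, 506.3 and 498.6 in pyruvate cells. No pyruvate array reached the untreated range, and the fall was 0.27 ± 0.06 (SE; adjusted p = 0.0053). The other Kat2b probe sets, both much dimmer, were at -0.15 and -0.28 and did not pass. Within arrays the log2 ratio of Kat2a to Kat2b was 0.53 higher with pyruvate, with no overlap between groups. Hat1, an enzyme that acetylates newly made histone H4, was at 405.8, 395.0 and 411.3 against 357.0, 398.8 and 402.7 (95% interval -0.20 to 0.07). Nat10, which acetylates RNA, was at 216.6, 219.3 and 222.7 against 220.5, 260.4 and 241.8 (0.12, 95% interval -0.04 to 0.29). Neither passed.

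None of the 5 MYST acetyltransferases passed. Kat6b, also called MORF, came nearest: its signals were 179.4, 174.5 and 163.9 untreated and 151.9, 155.4 and 133.0 with pyruvate, without overlap, at -0.21 ± 0.08 (SE; adjusted p = 0.076). Its relative Kat6a (MOZ) was at 297.4, 277.0 and 294.2 against 291.6, 308.4 and 235.8, where the third pyruvate array stood below the rest (-0.06, 95% interval -0.26 to 0.14). Kat7 (HBO1), which acetylates histone H3 and H4 at replication origins and genes, was at 758.0, 788.7 and 723.2 against 756.6, 688.9 and 720.9 (95% interval -0.19 to 0.06).

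Kat8 (MOF), the enzyme for lysine 16 of histone H4, overlapped almost wholly, at 118.0 to 151.9 and 132.8 to 146.9 (95% interval -0.22 to 0.23). Kat5 (TIP60), an enzyme of the DNA damage response, was at 434.4 to 510.4 untreated and spread from 408.8 to 541.3 with pyruvate, and its probe sets were at -0.03 and 0.17, with neither past the threshold.

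The p300 and CBP acetyltransferases, broad coactivators that MyoD also uses, did not pass. Ep300 read 487.9, 551.7 and 552.5 untreated and 602.6, 531.8 and 497.9 with pyruvate, the highest and the second lowest of all 6 arrays being pyruvate ones. Its interval was -0.13 to 0.20. Crebbp was at 347.6, 369.9 and 390.4 against 433.4, 363.9 and 405.6 (0.11, 95% interval -0.05 to 0.27), and its other tested probe sets were both at -0.04.

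Of the p160 coactivators, which bind nuclear receptors and bring p300 and CBP to them, Ncoa2 fell. Ncoa2 (also GRIP1 or SRC-2, a coactivator of MEF2C and myogenin in muscle) had signals of 315.6, 339.3 and 324.1 untreated and 202.5, 218.5 and 202.8 with pyruvate. No other member changed as much (-0.61 ± 0.07, SE; adjusted p = 4.6e-05), and it fell whichever array was left out. The change rests on its brightest probe set: the other 3 tested ones were at -0.04, 0.18 and -0.35 without passing, and the mean over all was -0.21 (adjusted p = 0.15). Ncoa1 was at 152.9, 140.3 and 131.3 against 146.1, 127.7 and 160.3 (95% interval -0.19 to 0.24). Within arrays the log2 ratio of Ncoa1 to Ncoa2 was 0.64 higher with pyruvate. Ncoa3 was at 106.4, 126.1 and 107.7 against 112.6, 122.2 and 91.6 (-0.06, adjusted p = 0.75), yet a second Ncoa3 probe set of similar signal fell by 0.33 (adjusted p = 0.020).

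**Figure D3:**
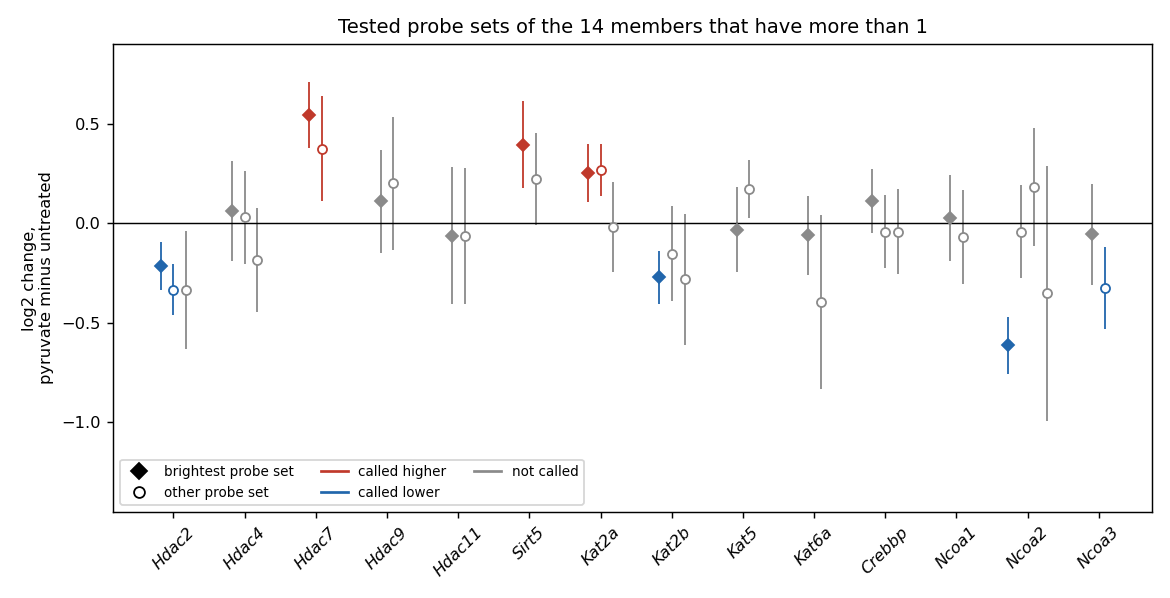
Log2 change with 95% interval for every tested probe set of the 14 members that have more than 1, the brightest as a filled diamond and the others as open circles; red and blue mark calls and grey no call. Hdac2, Hdac7 and Kat2a have a second probe set called the same way, whereas in Ncoa2 only the brightest stands apart from 0.

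Agreement between probe sets was thus uneven. Of 14 members with more than 1 tested probe set, 6 were called on the brightest, and for 3 of these another was called the same way. Over all genes the share was 48.8%, and of all tested probe sets 32.2% were called, 16.3% higher and 15.9% lower. Sirt1, Sirt2, Hdac1 and Hdac6 have 1 probe set each, so their calls have no such check. Brightest probe sets whose name ends in _s_at (Hdac2, Hdac3, Sirt5, Kat2b and Kat8) or _a_at (Hdac11, Sirt2 and Sirt3) can match more than 1 transcript.

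Genes whose products work with these enzymes were read from 8 lists. Of 203 genes 191 had a probe set and 170 were tested. Of these 25 rose and 43 fell, 40.0% in all, with a median of -0.03, so passing was about as common as over all genes (35.1%). Falls outnumbered rises, whereas over all genes rises outnumbered falls. The lists were chosen with earlier results of these data known, and this contrast in direction was not tested.

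Genes of the complexes that carry class I deacetylases numbered 31, with 4 higher, 8 lower and a median change of 0.00. The 4 that rose were Sin3b, Suds3, Brms1l and Chd3, by 0.21 to 0.30. Rcor1, the CoREST scaffold that joins HDAC1 and HDAC2 to the demethylase KDM1A, went from 487 ± 59.2 to 274 ± 52.5 (-0.80, adjusted p = 0.00039), and both of its other probe sets fell. Its relative Rcor2 went from 162 ± 12.3 to 87.6 ± 12.1 (-0.79, adjusted p = 0.00023). Sap30 of the SIN3 complex fell by 0.42 and Mier1, another HDAC1 and HDAC2 partner, by 0.32, though a second Mier1 probe set was at -0.05 without passing (adjusted p = 0.76).

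Partners and kinases of class IIa deacetylases rose in 4 and fell in 5 of 18 cases, and their median was 0.02. The 4 that rose were Ywhaz, Ywhae, Ywhaq and Ywhab, by 0.18 to 0.38, while Ywhag of the same family fell by 0.25. All 3 tested MEF2 genes fell. Mef2a went from 1227 ± 26.1 to 732 ± 22.1 (-0.73, adjusted p = 1.5e-06), and its other 5 tested probe sets were lower too. Mef2d fell by 0.49 on its brightest probe set, though its others were at 0.00 and 0.03 and the mean over them did not pass (-0.15, adjusted p = 0.12). Mef2c, at 79.6 ± 5.21 and 57.6 ± 4.84, fell by 0.38 (adjusted p = 0.023), a call lost (adjusted p 0.055 to 0.085) without untreated array 1 or 2 or without pyruvate array 1 or 3. The brightest probe set of Camk2d, a kinase that sends class IIa deacetylases out of the nucleus, fell by 0.60, but another rose by 0.30 (adjusted p = 0.013) and the mean over its probe sets did not pass (-0.18, adjusted p = 0.12).

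Among 47 subunits of acetyltransferase complexes 6 rose and 10 fell (median -0.05). Jade2, a scaffold of HBO1 complexes, rose from 47.9 ± 9.02 to 118 ± 3.37 (1.08, adjusted p = 7.1e-05), and Kansl2 of the NSL complex of MOF rose from 1009 ± 20.0 to 1467 ± 72.4 (0.53), with a dim second probe set at 0.27 that did not pass (adjusted p = 0.14). Dr1, a subunit of the ATAC complex of GCN5 and PCAF, fell by 0.53, and Actl6a, an actin-related subunit of TIP60 and of chromatin remodelling complexes, by 0.49. Each of the last 2 had a second probe set that fell.

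Genes listed as other acetyltransferases, which include subunits such as Naa15 and coactivators, fell in 7 of 17 cases and rose in 0. Their median was -0.17, where 14.5% of all genes fell. Clock, a circadian transcription factor with acetyltransferase activity, went from 360 ± 23.6 to 262 ± 6.39 (-0.44, adjusted p = 0.00045), and 2 of its other probe sets fell too. Esco1 and Esco2, which acetylate cohesin, fell by 0.40 and 0.47, though the other Esco1 probe set was at -0.11 without passing (adjusted p = 0.47). Naa15, the ribosome-bound subunit of the main N-terminal acetyltransferase, fell by 0.34, as did its other 3 probe sets by 0.22 to 0.47.

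Readers of acetyl-lysine, mostly bromodomain proteins, fell in 8 and rose in 2 of 25 cases, with a median of -0.11. The 2 that rose were Brd2, by 0.28, and Trim28, by 0.21. Phip went from 799 ± 20.3 to 469 ± 40.3 (-0.75, adjusted p = 1.0e-05), and 6 of its other 7 probe sets fell. Atad2, an ATPase with a bromodomain, fell by 0.53, and its relative Atad2b by 0.54. Their second probe sets, both dim, did not pass, at -0.51 for Atad2 (adjusted p = 0.061) and -0.14 for Atad2b (adjusted p = 0.54). Pbrm1, the subunit of the PBAF remodelling complex with a row of bromodomains, went from 1590 ± 43.1 to 1104 ± 77.2 (-0.52), with both of its other probe sets lower.

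**Figure D4:**
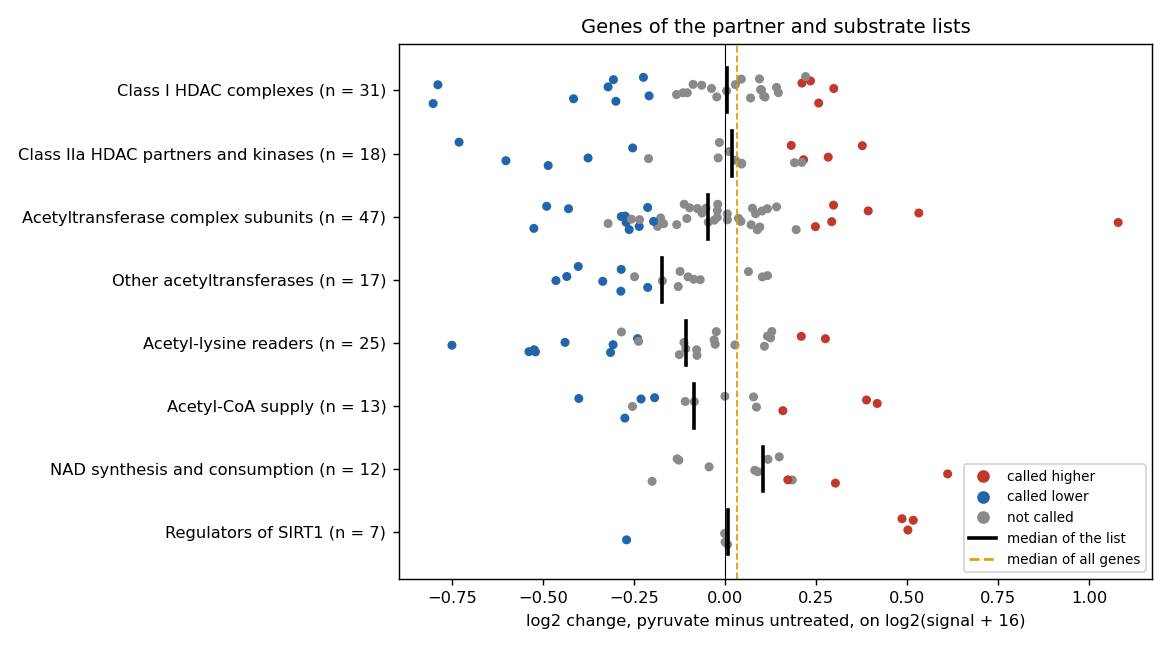
Log2 change (pyruvate minus untreated) of the 170 tested genes of the 8 lists of partners, readers and substrate supply, 1 point per gene, with vertical spread only to separate points; black bars are list medians and the dashed line the median of all genes. Blue points outnumber red ones in the lists of other acetyltransferases, subunits included (7 and 0), and of acetyl-lysine readers (8 and 2).

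Genes of acetyl-CoA supply passed in 7 of 13 cases, 3 higher and 4 lower, with a median of -0.08. Slc25a1, the carrier that exports citrate from mitochondria, rose from 268 ± 11.2 to 364 ± 11.8 (0.42, adjusted p = 0.00038). Slc25a20, the carnitine and acylcarnitine carrier, rose by 0.39 (adjusted p = 0.016), a call lost without untreated array 1 or 2 or pyruvate array 2 (adjusted p 0.053 to 0.069), and its second probe set did not pass. Acat1, the mitochondrial acetoacetyl-CoA thiolase, fell by 0.40, and of its other probe sets 1 fell and 1 did not pass. Dld, the dehydrogenase subunit shared by the pyruvate dehydrogenase and related complexes, fell by 0.28, a call lost with the mean over probe sets (adjusted p = 0.079).

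Of 12 tested genes that make or use NAD 3 rose and 0 fell (median 0.10). In this list 9 of the 21 genes with a probe set were too dim to test. Nmnat2, an enzyme of the last step of NAD synthesis, was at 45.6, 46.1 and 78.0 untreated and 89.2, 83.5 and 106.4 with pyruvate (0.61, adjusted p = 0.015). The third untreated array stood apart from the others, and the call was lost without untreated array 1 or 2 or pyruvate array 3 (adjusted p 0.062 to 0.066). Nadk, which turns NAD into NADP, rose by 0.30, and its second probe set rose too. Parp1, a consumer of NAD in DNA repair, rose by 0.17 on its brightest probe set (adjusted p = 0.029), whereas another fell by 0.22. That rise was lost without untreated array 1 or 2 or pyruvate array 1 or 2 (adjusted p 0.052 to 0.11).

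Regulators of SIRT1 passed in 4 of 7 cases, 3 higher and 1 lower, with a median of 0.01. Foxo1, a forkhead factor that SIRT1 deacetylates and that can act on the Sirt1 gene, went from 104 ± 1.99 to 152 ± 4.53 (0.49, adjusted p = 0.0010), and a second probe set rose by 0.40. Foxo3 rose by 0.52 and E2f1, the cell cycle factor, by 0.50, each on the brightest probe set alone: the mean over probe sets was 0.12 (adjusted p = 0.32) and 0.16 (adjusted p = 0.18). Ccar2 (DBC1), an inhibitor that binds SIRT1, fell by 0.27 (adjusted p = 0.033), a call lost without any array other than untreated array 3 (adjusted p 0.058 to 0.16).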

How the data were processed

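The authors deposited MAS5 signals, linear intensity values per probe set; MAS5 is named in the submitters' processing notes, without a version. The 2% trimmed mean was 150 on each array and medians ran from 30.3 to 33.0. From these, log2(signal + 16) was tested with limma 3.58.1 in R 4.3.3 (lmFit, eBayes with trend, two-sided). Benjamini-Hochberg adjustment ran over the 22519 of 45037 non-control probe sets with a mean log2 value of at least 5.53, and the threshold was 0.05. Annotation gave 34945 probe sets 1 symbol, 932 several and 9160 none, and only the first were named. A gene is its brightest probe set over all 6 arrays. Separate cultures are not stated for the 3 samples of a group, so the spread behind each p-value may be technical. An exact permutation test of 3 against 3 cannot go below p = 0.1 and was not used.

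The members and lists were chosen with earlier results of these data known. All members were named, plus up to 4 called genes per partner list by size of change and the defining markers. Where those 4 had all fallen but others of the list rose, the latter were named too, as was Ywhag. The scripts were tested on simulated data: of 123 calls 3 were false. Alternatives were other pseudocounts, signal filters, normalizations and variance models, the replicate block, array weights, the mean over probe sets and leaving out each array.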

Additional observations from a re-analysis of the deposited data

How the results depend on the processing

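All 10 called members kept their direction under every alternative that tested them, and 4 of them (Hdac7, Sirt1, Sirt2 and Kat2b) kept their call in each. None of the 22 others passed under any. The number of members called was 10 under a pseudocount of 1 (34.9% of all genes called) and under the 3 normalizations (33.8% to 34.9%). It was 9 under a pseudocount of 64 (35.4% of all genes), without a signal filter (16.7%), with the stricter one (47.4%) and with array weights (36.2%). The stricter filter tested fewer members, and Sirt5 was not tested there. The count was 8 with the mean over probe sets (31.8% of all genes) and 8 to 9 when 1 array was left out (26.4% to 34%). It was 6 without the variance trend, where Hdac1, Hdac2, Kat2a and Hdac6 were lost and 28.3% of all genes were called. No pairing by replicate number was seen in the signals: deviations of same-numbered arrays correlated at -0.01, 0.01 and 0.02. Whether the samples were paired by culture or day is not stated, and these correlations cannot settle it. With the replicate block 9 members passed, beside 33.6% of all genes, and Hdac6 was lost (adjusted p = 0.074). Over all probe sets the count of calls was 7250, and 5376 to 7040 with 1 array left out. Over all genes it was 3753, and 3032 of 18193 without a signal filter. For the partner lists it was 68, and 51 to 71 with 1 array left out, and the number of classes with a call was 8 of 11, 7 whichever array was left out and 6 to 8 over the other alternatives.

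Class medians moved more than the spread between replicates in some settings. Under the stricter filter, which tested fewer members, they were -0.21 for class I, 0.25 for class IIa, -0.27 for nuclear sirtuins and -0.61 for p160 coactivators. Under median centring, which shifted all genes by 0.03, they were 0.063 for GNAT and -0.026 for MYST enzymes. With a pseudocount of 64 nuclear sirtuins were at -0.11, and with the mean over probe sets p160 coactivators were at -0.19. With 1 array left out nuclear sirtuins ran from -0.26 to -0.086, p160 coactivators from -0.13 to 0.013, GNAT enzymes from -0.0098 to 0.085 and MYST enzymes from -0.096 to -0.033. Causes were not tested. With 3 arrays a group, the number of arrays limits precision, and intervals were widest for dim genes such as Hdac11 and Sirt4.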
